A study of Mus musculus with 4 samples.

Results

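A set of 10 clustered histone H2B genes was followed across the 4 arrays of a study of the retinoblastoma protein Rb in murine embryonic fibroblasts (MEFs). Its members, Hist1h2bb, Hist1h2bc, Hist1h2be, Hist1h2bf, Hist1h2bh, Hist1h2bj, Hist1h2bk, Hist1h2bm, Hist1h2bn and Hist1h2bp, were given by symbol among 30872 symbols on the array. They were picked because earlier values of these same arrays moved in opposite directions in Rb-deleted MEFs and in MEFs expressing ΔCdk Rb-HA, so their ratios on those arrays are a description of the choice and not a test of it. Of these genes 9 had a probe in the table used, with 13 probes between them, and no probe was found there for Hist1h2bp. A probe was called detected where its detection p-value, the deposited measure of signal over background, was below 0.01. By this rule 12 of the 13 probes and 8 of the 9 genes were detected on at least 1 array, and 11 probes were detected on all 4. Hist1h2bb was the gene not detected on any array.

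The cells were Rb f/f MEFs of the FVB;129 strain, in which both copies of Rb carry loxP sites. Parental MEFs received a solution without TAT-Cre and then media alone, each in 2 treatments of 1 hr, 3 hr apart. Rb-deleted MEFs received TAT-Cre, a cell-permeable recombinase that removes the floxed part of Rb, and media alone. WT Rb-HA MEFs received TAT-Cre and a retrovirus for HA-tagged wild type Rb, and ΔCdk Rb-HA MEFs the same with an Rb whose Cdk phosphorylation sites were mutated, so both groups with ectopic Rb also lack endogenous Rb. By the paper's text all 4 groups were contact arrested in early G1 phase, released for 4 hr and treated with doxorubicin, which poisons topoisomerase II and so breaks DNA, at 100 ng/ml for 3 hr. No group was left without doxorubicin. Each condition was measured on 1 array, all 4 on 1 BeadChip, so array position and condition cannot be told apart and no p-value was computed. Errors given in brackets are bead standard errors, which cover the spread between copies of a probe on an array and not that between cultures. Between 28 and 63 beads stood behind each value of a member.

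Histone H2B pairs with H2A, and dimers of H2A and H2B join a tetramer of H3 and H4 to form the core of the nucleosome around which DNA is wound. Most genes for these proteins lie in clusters, have no introns and are transcribed in S phase, when new chromatin is built. Their messages usually end in a stem-loop bound by SLBP and carry no poly(A) tail, while some histone genes can also make polyadenylated messages. The labelling kit named by the submitters primes from poly(A) with oligo(dT), so polyadenylated forms are the ones it copies. Which form gave the signals reported here was not tested. H2B promoters are known for an octamer element bound by the POU factor Oct-1, and Rb is known for holding back E2F-driven genes of the G1/S transition.

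Because H2B coding sequences are nearly alike, the probe letters are shown first, for the set in which different genes carry overlapping probes. The array uses probes of 50 bases. The lines give bases 25 to 50, counted from the A of the start codon, of every H2B probe that covers this stretch. Capitals mark a base that differs from the Hist1h2bf probe.

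Hist1h2bf: cccgccccgaagaagggctccaagaa

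Hist1h2bk: cccgccccgaagaagggctccaagaa

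Hist1h2bh: ccTgccccgaagaagggctccaagaa

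Hist1h2bn: cccgccccgaagaagggGtccaagaa

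Hist1h2bb: ccAgccccTaagaagggAtcTaagaa

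Hist2h2bb: ccTgccccAaagaagggctcTaagaa

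Hist3h2bb: ccAgccccCaagaaAggctccaaAaa

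Here the Hist1h2bf and Hist1h2bk probes were identical, and those of Hist1h2bh and Hist1h2bn each differed by 1 base. Probes of Hist1h2bb, Hist2h2bb and Hist3h2bb differed by 4, 3 and 4 bases, and none of these 3 was detected on any array. Over their whole overlaps, the Hist1h2bf probe differed from that of Hist1h2bh by 2 bases of 49, from that of Hist1h2bk by 1 base of 40 and from that of Hist1h2bn by 1 base of 36. Another pair of probes lay near the end of the coding sequence, the Hist1h2bk probe at transcript position 319 and the Hist1h2be probe at position 543, with 2 differing bases of 45. A stretch of 30 bases of each shows 1 of these differences in capitals, and the start of the brightest Hist1h2bc probe follows them as a probe with no near match on the array.

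Hist1h2bk at 319: ggagggcaccaaggctgtcaccaagtaTac

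Hist1h2be at 543: ggagggcaccaaggctgtcaccaagtaCac

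Hist1h2bc at 462: gctggatgctgtaacctcaagacagtgcaa

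In all, 6 member probes differed by under 3 bases from the probe of another H2B gene over an overlap of at least 25 bases, and 4 detected genes (Hist1h2bf, Hist1h2bh, Hist1h2bk and Hist1h2bn) were represented by such a probe. The other 4 detected genes (Hist1h2bc, Hist1h2be, Hist1h2bj and Hist1h2bm) were represented by a probe without such a match. Matches of a probe to transcripts of other H2B genes were not computed, since only the probe sequences were used, so a value belongs to a probe and may hold the signal of more than 1 gene.

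The genes lay on chromosome 13 in the RefSeq annotation of assembly GRCm38.p6. Of the loci 7 were 448 to 522 bases long, from Hist1h2bf at chr13:23573760-23574207 to Hist1h2bh at chr13:23542923-23543444. The other 3 were longer. Hist1h2bc covered 8282 bases, Hist1h2bp 14079 bases and Hist1h2be 37455 bases. Hist1h2bc and Hist1h2be were also the genes with a probe at a transcript position past the length of the short loci, at 643 for Hist1h2bc and at 543 and 2359 for Hist1h2be.

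The members shared 1 order of arrays, with the lowest intensity in Rb-deleted MEFs and the highest in ΔCdk Rb-HA MEFs. This order held for all 12 detected probes, while parental MEFs and WT Rb-HA MEFs lay in between. The genes were chosen for opposite directions in Rb-deleted and ΔCdk Rb-HA MEFs, so nothing is read from that count. After normalization 1774 of the 12616 genes detected on any array were below parental in Rb-deleted and above it in ΔCdk Rb-HA MEFs. Intensities are the deposited values, in arbitrary units and not yet normalized, and levels of different probes were not compared. Hist1h2bf gave 1564 in parental, 896 in Rb-deleted, 1967 in WT Rb-HA and 2489 in ΔCdk Rb-HA MEFs, with bead standard errors of 31.0, 30.9, 45.7 and 42.0. Hist1h2bh gave 929, 536, 1157 and 1510 on the same arrays in the same order. Both therefore stood lower in Rb-deleted MEFs than on any other array by many times their bead standard errors. For the Hist1h2bk probe at position 25 the intensities were 588, 343, 746 and 924. Hist1h2bn, whose probe begins at the start codon, gave 560, 376, 747 and 969. Any pair of these 4 probes overlaps by at least 26 bases, as shown above.

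Probes without a near match on the array gave the same order. Their genes were chosen by the same rule, so this order is no test of probe overlap. At position 299, Hist1h2be had intensities of 1531, 783, 1758 and 2271 in parental, Rb-deleted, WT Rb-HA and then ΔCdk Rb-HA MEFs. Hist1h2bj gave 1231, 721, 1490 and 1848, and Hist1h2bm gave 416, 229, 499 and 624. The brightest Hist1h2bc probe, at 462, gave 3967, 2043, 3725 and 4690. Among the probes that stood for the 8 genes, it alone was lower in WT Rb-HA than in parental MEFs. Signal of the Hist1h2bb probe stayed between 43.3 and 46.8 on the 4 arrays, with detection p-values above the threshold on each.

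**Figure D1:**
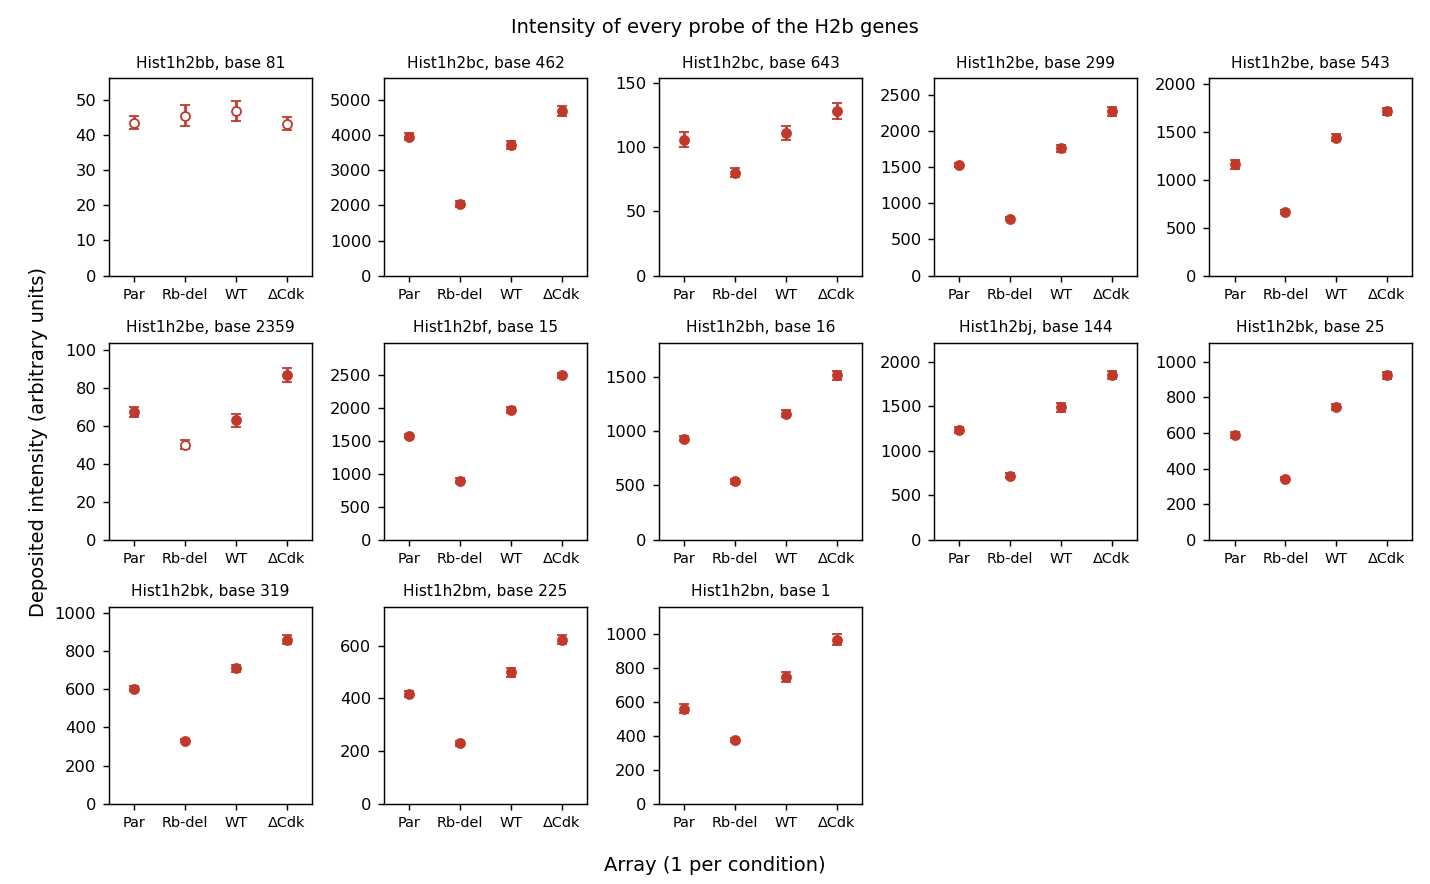
Deposited intensity (arbitrary units, linear axis from 0) of each of the 13 probes of 9 H2b genes on the parental (Par), Rb-deleted (Rb-del), WT Rb-HA (WT) and ΔCdk Rb-HA (ΔCdk) array, 1 array per condition. Bars are bead standard errors and open circles mark a probe not detected on that array; "base" is the probe's position in the transcript. The 12 detected probes are lowest in Rb-deleted and highest in ΔCdk Rb-HA MEFs, and the Hist1h2bb probe stays between 43.3 and 46.8.

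On the normalized scale, the 8 detected members had a median log2 ratio of -0.77 in Rb-deleted over parental MEFs, a level 1.71-fold lower. All 8 were below parental, against 47.5% of the 12616 genes detected on the arrays, whose median was 0.017. Past 1.6-fold lower were 7 members, where 2.98% of all genes were past it. Since the genes were chosen on this ratio, nothing is read from that count. The ratios ran from -0.95 (0.05) for Hist1h2be to -0.57 (0.08) for Hist1h2bn, the member that did not pass 1.6-fold. Hist1h2bc came next to Hist1h2be at -0.92 (0.07), a difference within their bead standard errors. Hist1h2bf, Hist1h2bh and Hist1h2bk were all at -0.77, with bead standard errors of 0.06 to 0.07, and could not be ordered.

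In ΔCdk Rb-HA over parental MEFs, the other ratio behind the choice, the median of the members was 0.74 and that of all genes -0.006. All 8 were above parental and 5 passed 1.6-fold, namely Hist1h2bf, Hist1h2bh, Hist1h2bk, Hist1h2bm and Hist1h2bn, where 2.58% of all genes passed it. Hist1h2bn had the highest ratio at 0.91 (0.09). Hist1h2bc had the lowest at 0.27 (0.07). Hist1h2bj at 0.68 (0.05) lay just under the threshold and Hist1h2bm at 0.72 (0.06) just over it, and these 2 did not differ beyond their bead standard errors. Of the 12616 genes, 12 passed 1.6-fold down in Rb-deleted and up in ΔCdk Rb-HA MEFs, and Hist1h2bf, Hist1h2bh, Hist1h2bk and Hist1h2bm were 4 of them. Hist1h4k, a histone H4 gene, was another of the 12. Both ratios were used to choose the members, so nothing is read from these counts. The Hist1h2bf probe also nearly matches those of Hist1h2bh and Hist1h2bk, so these genes may not be separate readings.

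The WT Rb-HA array took no part in choosing the genes, but its ratio shares the parental array with the other 2. The members' median log2 ratio to parental on it was 0.37, against 0.009 for all genes. Of the members 7 were above parental by over 2 bead standard errors, from 0.26 (0.05) for Hist1h2be to 0.48 (0.09) for Hist1h2bn. Of all genes 48.6% were below parental on this array. The share of all genes past 2 bead standard errors is not given here, so nothing is read from the count of 7. The Hist1h2be ratio fell to 0.15 when its probes were averaged. Hist1h2bc stood apart at -0.05 (0.06), which is within its bead standard error of no difference. No member passed 1.6-fold, while 0.888% of all genes did. With 1 array per condition these values compare 4 arrays, and the spread between cultures is unknown.

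Comparisons among the 3 TAT-Cre treated groups do not use the parental array. All 8 members were higher in WT Rb-HA than in Rb-deleted MEFs past 1.6-fold, where 0.539% of all genes passed it. Their median was 1.16, or 2.24-fold, from 0.87 (0.06) for Hist1h2bc to 1.22 (0.09) for Hist1h2bm. In ΔCdk Rb-HA over Rb-deleted MEFs all 8 passed again, with a median of 1.53, or 2.89-fold, and 2.31% of all genes passed. Hist1h2bc was again the lowest at 1.19 (0.07). The choice of genes fixed the direction of this last comparison, and the first shares the Rb-deleted array with it.

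Between the cells with ectopic Rb, the members differed least among themselves. ΔCdk Rb-HA was above WT Rb-HA in all 8 members by over 2 bead standard errors, while 51.3% of all genes were lower in ΔCdk Rb-HA. The members' median log2 ratio was 0.36 against -0.007 for all genes. This comparison shares the ΔCdk Rb-HA array with the choice of genes, so nothing is read from that count. None of the 8 passed 1.6-fold, and 0.84% of all genes did. The ratios ran from 0.32 (0.06) for Hist1h2bc to 0.43 (0.05) for Hist1h2bh, and their standard deviation over the genes, 0.04, was below the median bead standard error of 0.06. Hist1h2bc, which departed from the others in each ratio to parental or to Rb-deleted MEFs except that of Rb-deleted over parental, lay within the bead standard errors of the others here.

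**Figure D2:**
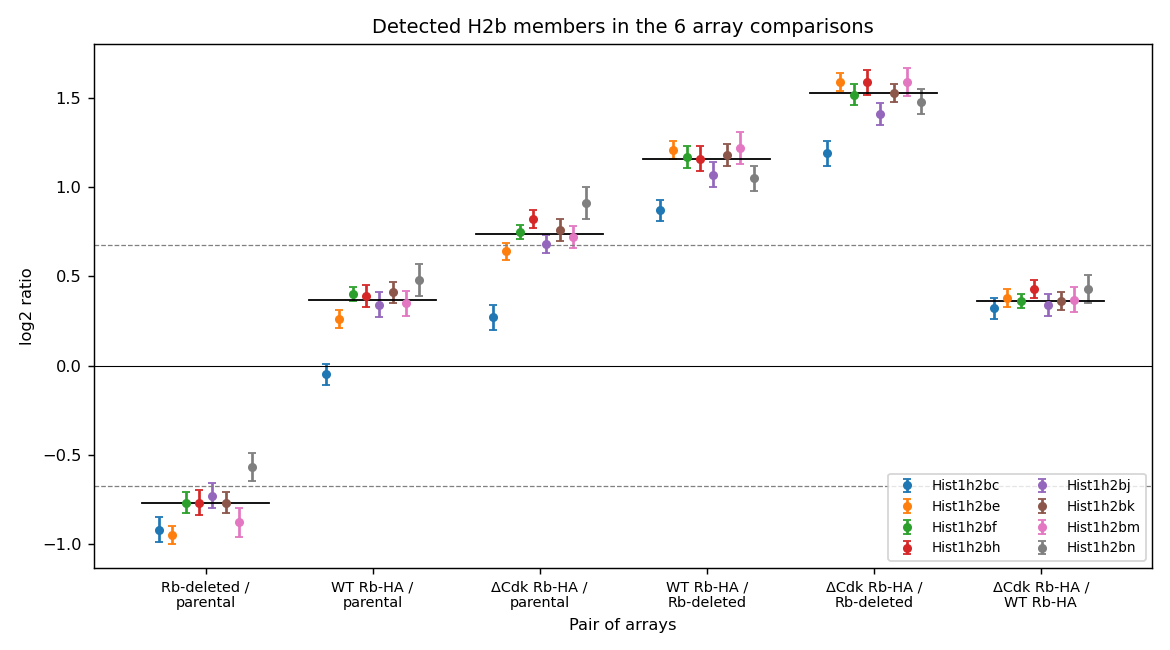
Normalized log2 ratio (vertical axis) of the 8 detected H2b genes in the 6 pairs of arrays (horizontal axis), 1 array per condition. Bars are bead standard errors combined over both arrays, short black lines are medians over the 8 genes and dashed lines mark 1.6-fold. Medians are -0.77, 0.37, 0.74, 1.16, 1.53 and 0.36 from left to right, and Hist1h2bc lies lowest in the 5 comparisons after the first.

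Genes with more than 1 probe allowed probes to be compared within a gene. For Hist1h2bk, the probes at 25 and 319 gave -0.77 (0.06) and -0.87 (0.06) in Rb-deleted and 0.76 (0.06) and 0.63 (0.05) in ΔCdk Rb-HA over parental MEFs. Hist1h2be gave -0.95 (0.05) at position 299 and -0.77 (0.07) at 543 in Rb-deleted over parental MEFs, and 0.64 (0.05) and 0.67 (0.07) in ΔCdk Rb-HA over parental MEFs. Both genes kept their direction at each of these probes. The probes at 319 and 543 nearly match each other, and that at 25 nearly matches probes of Hist1h2bf and Hist1h2bn. They are therefore not independent readings of each gene.

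The remaining probes of Hist1h2bc and Hist1h2be had signals nearer to background. At position 643 the Hist1h2bc intensities were 106, 80.0, 111 and 128 in parental, Rb-deleted, WT Rb-HA and then ΔCdk Rb-HA MEFs, with log2 ratios to parental of -0.51 (0.14), 0.08 (0.14) and 0.37 (0.14). The Rb-deleted ratio was smaller in size than the -0.92 (0.07) of the bright Hist1h2bc probe. At position 2359 the Hist1h2be intensities were 67.3, 49.9, 62.8 and 86.5. This probe was not detected in Rb-deleted MEFs, so it was at least 1.42-fold lower there than in parental MEFs and at least 2.05-fold lower than in ΔCdk Rb-HA MEFs. Here WT Rb-HA was not above parental, with a log2 ratio of -0.20 (0.16).

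Split by probe, the 4 genes with a near-matching probe had ratios from -0.77 to -0.57 in Rb-deleted, 0.39 to 0.48 in WT Rb-HA and 0.75 to 0.91 in ΔCdk Rb-HA over parental MEFs. Ranges of the 4 genes without one were -0.95 to -0.73, -0.05 to 0.35 and 0.27 to 0.72. In the last 2 comparisons the ranges did not overlap, with the near-matching probes higher. The part of probe overlap in these values was not tested.

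Other H2B genes on the array were mostly at background. Of 6 symbols outside the members 2 were detected. Hist2h2be, an H2B gene outside the chromosome 13 cluster, gave 177, 152, 246 and 327 at position 166 in parental, Rb-deleted, WT Rb-HA and then ΔCdk Rb-HA MEFs. Its log2 ratios to parental were -0.23 (0.13), 0.56 (0.11) and 1.05 (0.12), the same order of arrays as the members. The first of these ratios lay within 2 bead standard errors of no difference, so Rb-deleted and parental MEFs could not be ordered for it. Its probe at 2542 was not detected on any array. Hist1h2bg, a gene of the cluster, was near background at 73.9, 64.6, 76.2 and 64.6 and was as low in ΔCdk Rb-HA as in Rb-deleted MEFs.

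Many H2A genes, the partners of H2B in the dimer, were higher in Rb-deleted MEFs. Of 15 detected replication-dependent H2A genes, 11 were above and 4 below parental, with a median of 0.78. Past 1.6-fold higher were 9 of them, where 2.14% of all genes were, and none was past it lower. Probes of 5 of the 9 (Hist1h2ad, Hist1h2af, Hist1h2ai, Hist1h2an and Hist1h2ao) differed by under 3 bases from a probe of another gene, and those of Hist1h2ag, Hist1h2ah, Hist1h2ak and Hist2h2ac did not. Their medians over parental MEFs were 0.59 in WT Rb-HA and 0.72 in ΔCdk Rb-HA MEFs, with 5 and 9 genes past 1.6-fold higher. Between ΔCdk Rb-HA and Rb-deleted MEFs the H2A median was -0.03, where that of the H2B members was 1.53. Direct neighbours on the chromosome were compared in Rb-deleted over parental MEFs. In 5 pairs an H2B member and its H2A neighbour were both detected. In 4 of them the H2B gene was below and the H2A gene above parental. The choice of genes fixed the H2B side of these pairs, so only the H2A side could vary. Of all genes, 47.5% were below parental on this array.

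The pair of Hist1h2bf and Hist1h2ad lies 173 bases apart. Hist1h2ad gave intensities of 1448, 3144, 2475 and 2652 in parental, Rb-deleted, WT Rb-HA and then ΔCdk Rb-HA MEFs, so it was highest on the array where Hist1h2bf was lowest. Its log2 ratios to parental were 1.20 (0.05), 0.83 (0.06) and 0.97 (0.05), beside -0.77 (0.06), 0.40 (0.04) and 0.75 (0.04) for Hist1h2bf. Hist1h2ak, 163 bases from Hist1h2bn, gave 532, 1155, 997 and 1046, with a ratio of 1.21 (0.06) in Rb-deleted over parental MEFs beside -0.57 (0.08) for its neighbour. Hist1h2ah, 177 bases from Hist1h2bk, gave 488, 983, 876 and 962 and a ratio of 1.10 (0.07). Hist1h2ag, 248 bases from Hist1h2bj, was dim at 84.0, 129, 113 and 124, with a ratio of 0.82 (0.18). The exception was Hist1h2ac, 239 bases from Hist1h2bc, which was dim and lower in Rb-deleted MEFs, at 56.4, 42.1, 58.3 and 57.4. Its log2 ratio there was -0.60 (0.13), in the direction of the -0.92 (0.07) of Hist1h2bc. Hist1h2an, the neighbour of Hist1h2bp, had a ratio of 1.07 (0.06), with no H2B value to set beside it. The probes used for Hist1h2ad and Hist1h2an differed by under 3 bases from probes of 2 other H2A genes each, and those of Hist1h2ak, Hist1h2ah, Hist1h2ag and Hist1h2ac from none.

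**Figure D3:**
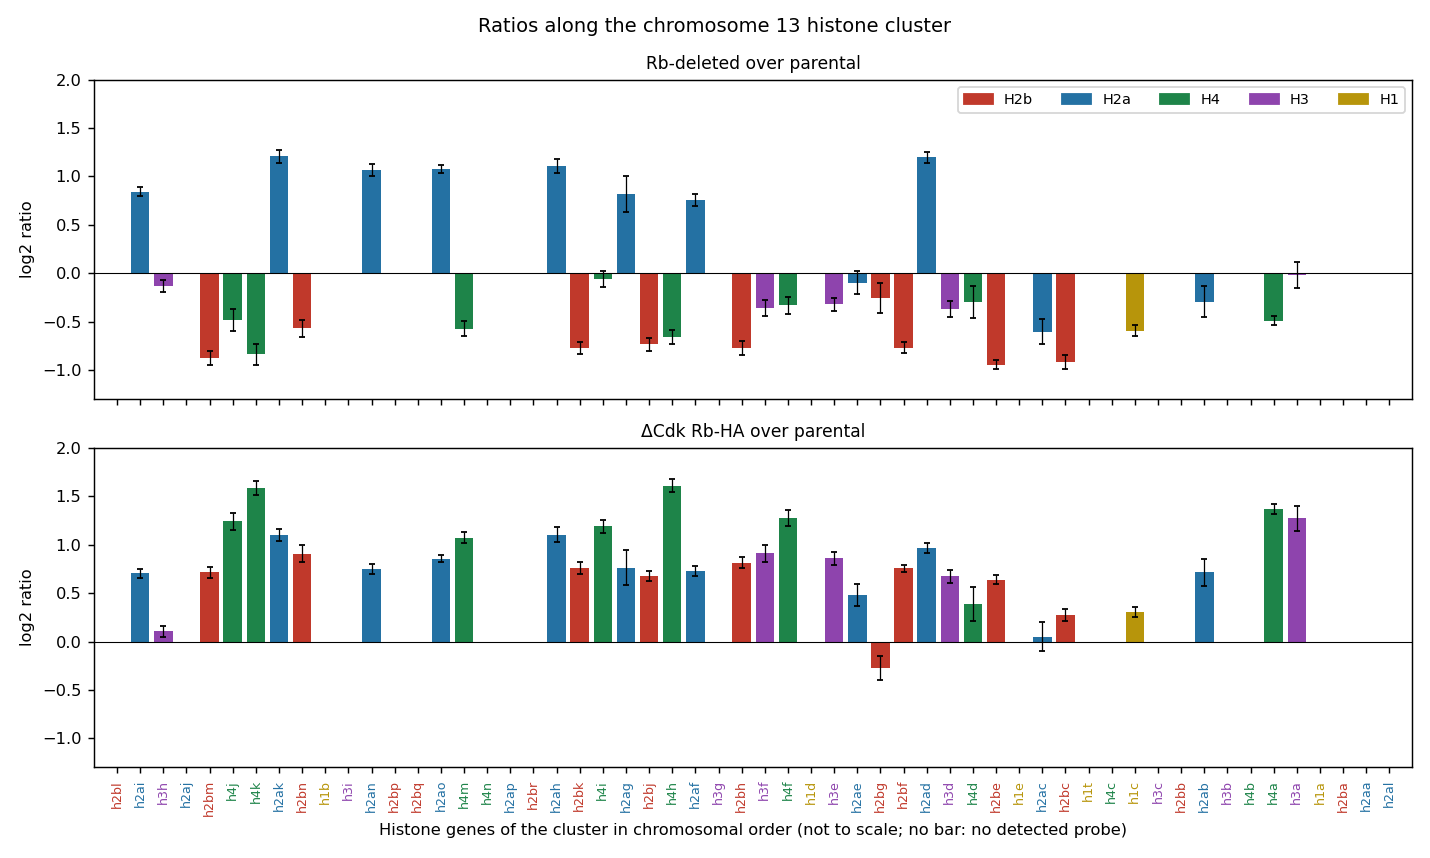
Normalized log2 ratio to parental (vertical axes) of the histone genes of the chromosome 13 cluster in chromosomal order (horizontal axis, not to scale) for the Rb-deleted array (top) and the ΔCdk Rb-HA array (bottom), 1 array per condition. Bars are coloured by histone family, error bars are bead standard errors, and genes without a detected probe have no bar. In the top panel H2A genes with ratios up to 1.21 stand next to H2B genes down to -0.95, and in the bottom panel every plotted gene of both families except Hist1h2bg is above 0.

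Other histone families were read in the same way. All 8 detected H4 genes were below parental in Rb-deleted MEFs, with a median of -0.49. Among them Hist1h4i at -0.059 (0.085) and Hist1h4d at -0.294 (0.166) lay within 2 bead standard errors of no difference. In ΔCdk Rb-HA MEFs all 8 were above parental, with a median of 1.26. Past 1.6-fold were 7 of them, where 2.58% of all genes were. Hist1h4h had ratios of -0.66 (0.07) and 1.61 (0.07) and Hist1h4k of -0.84 (0.11) and 1.59 (0.07) on those 2 arrays. H4 genes thus shared the order of the H2B members, with a larger median in ΔCdk Rb-HA MEFs. Near matches between the probes of different H4 genes were not examined, so these genes may not be separate readings. For the 7 detected H3 genes the medians were -0.20 and 0.67, with Hist1h3d at -0.37 (0.08) and 0.67 (0.07), Hist1h3f at -0.36 (0.08) and 0.91 (0.09) and Hist1h3a at -0.02 (0.13) and 1.27 (0.13). Hist1h1c, the detected linker histone gene of the 5 listed, had -0.59 (0.05) and 0.31 (0.05). Differences between families are given as values of 4 arrays and were not tested.

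**Figure D4:**
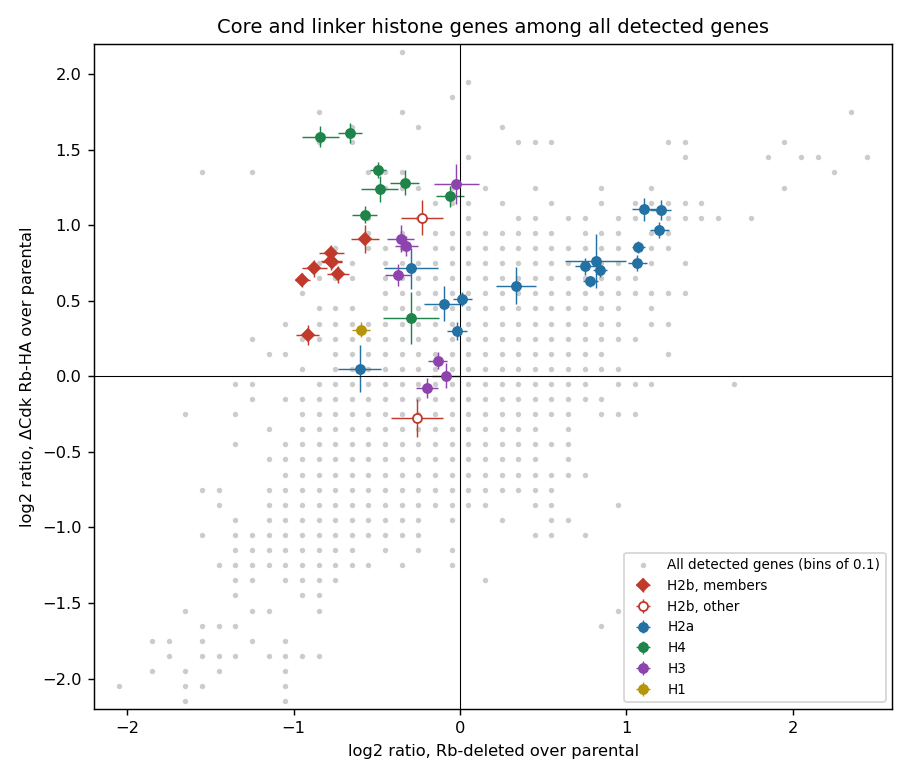
Normalized log2 ratio to parental of histone genes in Rb-deleted MEFs (horizontal axis) against ΔCdk Rb-HA MEFs (vertical axis), 1 array per condition, with bead standard errors as bars. Grey points mark bins of 0.1 that hold any of the 12616 detected genes, 46 of which lie outside the axes, and both ratios share the parental array. The 8 H2b members lie at the upper left, between -0.95 and -0.57 on the horizontal axis, and H2a genes reach 1.21 at the right.

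Genes that make or handle H2B were compared by list. Of 19 detected genes for histone mRNA transcription and 3′ processing, none passed 1.6-fold in any ratio to parental, and their medians were 0.09 in Rb-deleted, -0.03 in WT Rb-HA and -0.02 in ΔCdk Rb-HA MEFs. The widest values in this list were 0.54 (0.05) for Rdbp, a subunit of the elongation factor NELF, and 0.35 (0.05) for Lsm1, of the mRNA decay ring, in Rb-deleted MEFs. In ΔCdk Rb-HA MEFs they were 0.52 (0.12) for Lsm10, a part of the U7 particle that processes histone messages, and 0.51 (0.09) for Sympk, a scaffold of the cleavage complex. None of the 8 detected H2A-H2B chaperones passed 1.6-fold over parental, with Ssrp1, a subunit of FACT, at 0.47 (0.09) and Set at 0.42 (0.14) in Rb-deleted MEFs. Supt16h, the other FACT subunit, was at -0.31 (0.10) and Npm1 at -0.19 (0.06) in ΔCdk Rb-HA MEFs. For H2B ubiquitination 9 genes were detected and none passed 1.6-fold over parental. Ube2a, the E2 enzyme, was at -0.53 (0.08) and Paf1 at 0.39 (0.11) in Rb-deleted MEFs, and Rnf20, the E3 ligase, at -0.34 (0.08) and Ctr9 at -0.30 (0.12) in ΔCdk Rb-HA MEFs.

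S phase and G1/S E2F target genes were higher in all 3 ratios to parental. Of 28 detected, 25 passed 1.6-fold in Rb-deleted, 11 in WT Rb-HA and 23 in ΔCdk Rb-HA MEFs, where 2.14%, 0.888% and 2.58% of all genes did. The list's medians were 1.18, 0.60 and 1.04. Ung, which removes uracil from DNA, was at 2.46 (0.11) and Mcm3, a subunit of the replicative helicase, at 2.32 (0.11) in Rb-deleted MEFs. In ΔCdk Rb-HA MEFs Mcm3 was at 1.80 (0.11) and the licensing factor gene Cdc6 at 1.52 (0.10). The Rb-deleted array thus had the highest median of this list and the lowest of the H2B members.

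Profiles over the 4 arrays were compared with the median profile of the members, and the 5 nearest genes outside them were named. Nearness was measured as the root mean square of log2 differences after centring each gene. These genes were LOC385632 at 0.0644, Hist1h4m at 0.121, 0610010I05Rik at 0.124, Ptpn22 at 0.175 and Hist1h3f at 0.176. Among the members the same measure ran from 0.0137 for Hist1h2bf to 0.194 for Hist1h2bc. Intensities of LOC385632 were 134, 81.4, 147 and 186 in parental, Rb-deleted, WT Rb-HA and then ΔCdk Rb-HA MEFs, and those of 0610010I05Rik were 2802, 1666, 3336 and 3773. With 4 arrays, likeness of profiles is a description.

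Promoter letters were examined because the members shared their order of arrays. RefSeq windows of assembly GRCm38.p6, from 250 bases before to 50 bases after the annotated start, were at hand for 9 members in 10 entries, with 2 for Hist1h2be. The octamer ATTTGCAT, searched on both strands, was in 4 of these 10 and in 1.74% of all 32851 windows. The 4 are shown in capitals within 30 bases, 5′ to 3′ along the gene. None of the 4 overlapped TATAAA or CCAAT.

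Hist1h2bb, chr13:23746633-23746662, + strand: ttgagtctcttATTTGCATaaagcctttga

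Hist1h2be, chr13:23586019-23586048, - strand: agtaagacttaATTTGCATaagactgccta

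Hist1h2bk, chr13:22035780-22035809, + strand: catttcactttATTTGCATacgaagttcta

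Hist1h2bm, chr13:21722008-21722037, + strand: ctctcgtctctATTTGCATaacagcgtgta

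In the windows the octamer began 90, 67, 30 and 25 bases before the start in the order shown. The other Hist1h2be window and those of Hist1h2bf, Hist1h2bh, Hist1h2bj, Hist1h2bn and Hist1h2bp did not hold these letters. The octamer was also in 7 of 18 H2A windows (38.9%) and in none of 12 H4 and 10 H3 windows. H2A and H2B neighbours lie 163 to 248 bases apart, so windows of a pair cover in part the same letters. CCAAT was in all 10 member windows, against 37.4% of all windows, and TATAAA in 5 of them, against 13.6%. Windows of the other core histones held CCAAT in 18 of 18 H2A, 10 of 10 H3 and 3 of 12 H4 entries, and TATAAA in 11, 4 and 8 of them. The E2F letters TTTCCCGC and TTTGGCGC were in no member window, while 1.56% of all windows held either. They were also in none of the 18 H2A and 10 H3 windows and in 1 of the 12 H4 windows. A match here is a description of letters and not of a bound factor.

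Markers of other cells and the targeted gene were read on the same arrays. Rb1 gave 543, 160, 181 and 170 at transcript position 4421 in parental, Rb-deleted, WT Rb-HA and then ΔCdk Rb-HA MEFs, and its log2 ratios to parental were -1.88 (0.08), -1.69 (0.06) and -1.75 (0.06). Its probe at 4002 gave 108 and 56.7 in parental and Rb-deleted MEFs and was not detected on the other 2 arrays. The floxed part lies upstream of both probes, so they show the level of the message they match and not the deletion. Whether they match the message of ectopic Rb was not tested. The paper reports ectopic Rb protein at physiologic levels in these cells. All 12 fibroblast markers were detected, and none of the 4 endothelial markers. Of the fibroblast markers 8 were below and 4 above parental in Rb-deleted MEFs, with a median of -0.15. In ΔCdk Rb-HA MEFs 8 were again below and 4 above, with a median of -0.20. In WT Rb-HA MEFs 6 were below and 6 above, with a median of -0.01. The fibroblast collagen gene Col3a1 was past 1.6-fold lower than parental in Rb-deleted MEFs, at -0.73 (0.07), and in ΔCdk Rb-HA MEFs, at -0.98 (0.08). Lum was at -0.50 (0.04) in Rb-deleted MEFs. Pdgfrb was at -0.65 (0.10) in ΔCdk Rb-HA MEFs but at 0.30 (0.11) in Rb-deleted MEFs. Of 4 epithelial markers 3 were detected at low signal, with a summed intensity between 238 and 284 on the 4 arrays, Tacstd1 included. Krt18 was at 0.45 (0.15) in Rb-deleted MEFs and Krt8 at -0.39 (0.15) in ΔCdk Rb-HA MEFs, and Cdh1 was detected on the Rb-deleted array alone. None of the 3 passed 1.6-fold over parental. Of 16 leukocyte markers 13 were detected, and all 13 were below parental in Rb-deleted and WT Rb-HA cells, as were 12 of them in ΔCdk Rb-HA cells. Summed intensities were taken over all 16, the 3 not detected included. They were 11967 in parental, 6388 in Rb-deleted, 5919 in WT Rb-HA and 7498 in ΔCdk Rb-HA MEFs. The ratios of largest size in Rb-deleted over parental MEFs were -1.69 (0.06) for Emr1 and -1.40 (0.06) for Laptm5. Ptprc, Fcer1g and Itgam were not detected. The parental array was thus the highest in summed leukocyte signal, and its part in the H2B ratios was not tested. In such bulk samples fewer cells expressing a gene and less RNA per cell cannot be told apart.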

How the data were processed

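Whole-genome expression was measured on 4 Illumina MouseWG-6 v2.0 arrays, 1 per condition, and the labels gave the condition of each. The authors deposited 1 table of probe intensities on a linear scale, averaged over the beads of a probe and not normalized between arrays, each with a detection p-value. The deposited bead standard error, on the scale of the intensity, and the bead count of every probe stand beside them. Software and settings behind the table are not given in the sources used here. Probe positions in it come from more than 1 genome build and were not used.

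Background was corrected with limma (version 3.58.1, R 4.3.3) by normexp, inferred from the detection p-values, with an offset of 16. Arrays were quantile normalized together and log2 transformed. Genes entered with a probe detected (p-value under 0.01) on any array, and the probe with the highest mean log2 value stood for the gene. Bead standard errors were carried through each array's map from intensity to normalized value and combined over both arrays of a ratio. With 1 array per condition no test was run, and the number of arrays limits the precision. The offset draws ratios of dim probes toward 0. Lower bounds were set against the higher of the lowest detected value on the dim array and the dim probe's own value. The calculation was tested on simulated data.

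Members and lists were chosen with earlier results of these data known. Named genes were every member probe, other detected H2B genes, H2A neighbours of members, Rb1, the 2 genes of each list with the largest ratio in Rb-deleted and in ΔCdk Rb-HA MEFs, and the 5 nearest profiles. Hist1h4k was also named in a count after its value was seen. Probe and promoter letters were matched with Python 3.11.15, numpy 2.4.6 and pandas 2.3.3, and gene positions and promoters were from RefSeq (GRCm38.p6). The promoter of Hist1h2bc was not used here. Alternatives varied the offset and use of background correction, scaling of arrays, dim-probe filter, probe choice, probe overlap, fold threshold and a requirement on bead errors.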

Additional observations from a re-analysis of the deposited data

How the results depend on the processing

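Counts were recomputed under 12 alternatives and medians under the 9 that can change them. Under these 9, medians over the members kept their direction in all 6 comparisons and moved by less than the interval of the bead error, ranging from -0.90 to -0.74 for Rb-deleted over parental, 0.27 to 0.37 for WT Rb-HA over parental and 0.63 to 0.74 for ΔCdk Rb-HA over parental. Counts of members past the fold moved more. At 2-fold, 0 members passed lower in Rb-deleted and 0 higher in ΔCdk Rb-HA over parental MEFs. These falls follow from the raised threshold, as the log2 ratios of largest size, -0.95 and 0.91, are short of 2-fold. With median scaling 2 passed in ΔCdk Rb-HA over parental MEFs. Without probes that nearly match another gene, 4 genes were left, of which 4 passed lower in Rb-deleted over parental, 1 higher in ΔCdk Rb-HA over parental, 4 in WT Rb-HA over Rb-deleted and 4 in ΔCdk Rb-HA over Rb-deleted MEFs. The falls to 4 and to 1 follow from the genes left out, as the values of the genes kept did not change. In ΔCdk Rb-HA over parental MEFs, Hist1h2bf, Hist1h2bh, Hist1h2bk and Hist1h2bn had passed and were left out, and Hist1h2bm still passed. The cause of the other shifts was not tested. Of 408 values of single members, 13 moved beyond their bead error, 7 when the probes of a gene were averaged (Hist1h2bc and Hist1h2be), 4 with median scaling and 2 without background correction. The sign changed for Hist1h2bc in WT Rb-HA over parental MEFs, from -0.05 to 0.02 with its probes averaged. No paired analysis was possible because each condition has 1 array, and for the same reason no replicate could be left out. Signals near background limit Hist1h2bb, Hist1h2bg and the dim probes of Hist1h2bc and Hist1h2be.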
